A study of Arabidopsis thaliana with 6 samples.

Results

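The flavonol branch of phenylpropanoid metabolism was followed in *Arabidopsis thaliana* stems through 10 genes: the transcription factor genes *MYB11* (AT3G62610), *MYB12* (AT2G47460), *MYB111* (AT5G49330) and *PAP1* (AT1G56650), and the enzyme genes *CHS* (AT5G13930), *CHI* (AT3G55120), *F3H* (AT3G51240), *F3'H* (AT5G07990), *FLS1* (AT5G08640) and *DFR* (AT5G42800). These are 10 of the 33318 named entries of the deposited tables. They were selected on their pathway role with the Dex against mock result of *MYB11* already known, so their own differences between Dex and mock libraries are described here without a test. All 10 had reads in some library, and 9 passed the filter on low counts among 19347 genes tested. *DFR* did not pass, and *MYB11* passed only through the Dex libraries.

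Second internodes were taken from *pPXY:GR-ARF5∆III/IV* plants. In these plants the *PXY* promoter, active in cambium stem cells, drives the auxin response factor ARF5 without its domains III and IV. Those domains bind AUX/IAA repressors, and the fused glucocorticoid receptor domain (GR) holds the protein outside the nucleus until dexamethasone (Dex) is given. Every library carries this transgene: 3 came from mock-treated plants and 3 from plants given 15 µM Dex, all harvested after 3 h. Dex-treated plants without the transgene were not analysed here, so an effect of Dex itself cannot be told apart from that of ARF5. The methods give 3 plants per replicate for RNA preparation and the deposited design has RNA of 3 samples pooled, so p-values measure the spread between such pools, and in this bulk tissue fewer cells of a type and less RNA per cell cannot be told apart.

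The libraries held 22871927 to 32099136 reads in genes. Mock replicate 2 stood apart on the second principal component of the log2 CPM (counts scaled to a common library size after TMM normalization). This component held 20.6% of the variance and put that library at −54.1, with the other 5 libraries between −2.23 and 21.5. A larger share, 49.4%, fell on component 1, where mock replicates 1 and 3 lay at −50.4 and −50.6. The Dex libraries lay there between 30.1 and 44.2. Mock replicate 2 was at −9.75, between them and the other mock libraries. The auxin-related genes *ATHB8*, *IAA20* and *TMO5* passed the test at log2 differences of 1.10, 2.06 and 1.37. With edgeR's quasi-likelihood test and a Benjamini-Hochberg adjusted p under 0.05, 6.69% of the tested genes were called, 4.63% higher and 2.07% lower with Dex. Mock and Dex values did not overlap for 27.3% of the tested genes.

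Flavonols are made from a phenylpropanoid precursor by chalcone synthase (CHS), chalcone isomerase (CHI), flavanone 3-hydroxylase (F3H) and flavonol synthase (FLS1), with flavonoid 3'-hydroxylase (F3'H) setting the pattern of the B ring. The closely related R2R3-MYB factors MYB11, MYB12 and MYB111 are known to activate these early genes in *Arabidopsis* seedlings, each in other organs. DFR takes the same intermediates towards anthocyanins, and PAP1 (MYB75) is a MYB activator of that branch. Flavonols are known to affect auxin transport and to shield tissue from UV light.

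*MYB11* had no reads in the 3 mock libraries and 30, 62 and 46 reads in Dex replicates 1, 2 and 3. All 3 Dex libraries therefore lay above all 3 mock libraries. In CPM these were 1.25, 2.27 and 1.45, or 1.66 ± 0.543 (SD, n = 3), against a mock level of at most 0.0422 CPM, the limit set by 3 counts over the group, so that the level was at least 39.2-fold higher with Dex. The fitted log2 difference of 8.42 (SE 0.98) depends on the prior count of the fit and is no bound. Of the 138 Dex reads, 5 spanned an exon-exon junction and 4 lay in introns. A gene on the opposite strand, AT3G62615, overlaps 495 bases of *MYB11* in the RefSeq annotation and was not analysed here. The sources do not say if strand entered the counting, so reads of that gene could have been counted for *MYB11*.

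ARF proteins bind auxin response elements. The forms TGTCTC and TGTCGG were searched on both strands in the 250 bases before each RefSeq gene start. Other forms were not searched, among them CAGACA, the *WOX4* promoter site that ARF5 bound in the paper's assays. Among the 10 genes only the window of *MYB11* held either form, while 14.7% of the 27443 windows of protein-coding genes did (10.9% for TGTCTC alone). The *MYB11* window is shown because *MYB11* is the gene that had reads with Dex only. It lies at chr3:23154380-23154629 on the plus strand of TAIR10.1, and the capitals mark TGTCTC read on the minus strand, 156 to 151 bases before the start.
MYB11: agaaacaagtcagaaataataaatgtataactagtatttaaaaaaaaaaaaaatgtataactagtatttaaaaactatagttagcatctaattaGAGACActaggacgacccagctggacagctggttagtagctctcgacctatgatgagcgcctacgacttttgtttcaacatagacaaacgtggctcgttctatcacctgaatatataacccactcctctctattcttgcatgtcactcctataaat
The match is a description of the letters and not of ARF5 binding.

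The 2 relatives of *MYB11* had reads in every library. *MYB111* had 84, 78 and 96 reads in mock replicates 1, 2 and 3 and 108, 139 and 69 in the Dex replicates. The groups overlapped, with 3.66 ± 0.563 CPM in mock and 3.92 ± 1.55 CPM in Dex (SD, n = 3), a log2 difference of 0.10 (SE 0.34). *MYB12* had 11, 55 and 139 reads in mock and 36, 56 and 149 reads in Dex libraries. Its groups overlapped as well, at 2.88 ± 2.82 and 2.75 ± 1.70 CPM, and replicate 3 was the highest library of each group.

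Set per length by the deposited RPKM, *MYB11* made up 17.3%, 25.8% and 18.0% of the summed level of the 3 MYB genes in Dex replicates 1, 2 and 3 and none of it in mock libraries. *MYB111* took the largest share in mock replicates 1 and 2 (89.1% and 63.4%) and in Dex replicates 1 and 2 (65.7% and 54.2%). In the replicates numbered 3, *MYB12* took the largest share instead, with 55.5% in mock and 53.9% in Dex. The summed level was 3.03, 3.69 and 7.02 RPKM in mock and 5.42, 7.09 and 5.84 RPKM in Dex libraries, so the groups overlapped through mock replicate 3.

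Of the 9 members tested, 1 was called (*MYB11*) where 6.69% of all genes were. Groups did not overlap for 1 member, where they did not for 27.3% of all tested genes. Nothing is read from these counts because the choice of members used this contrast.

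**Figure D1:**
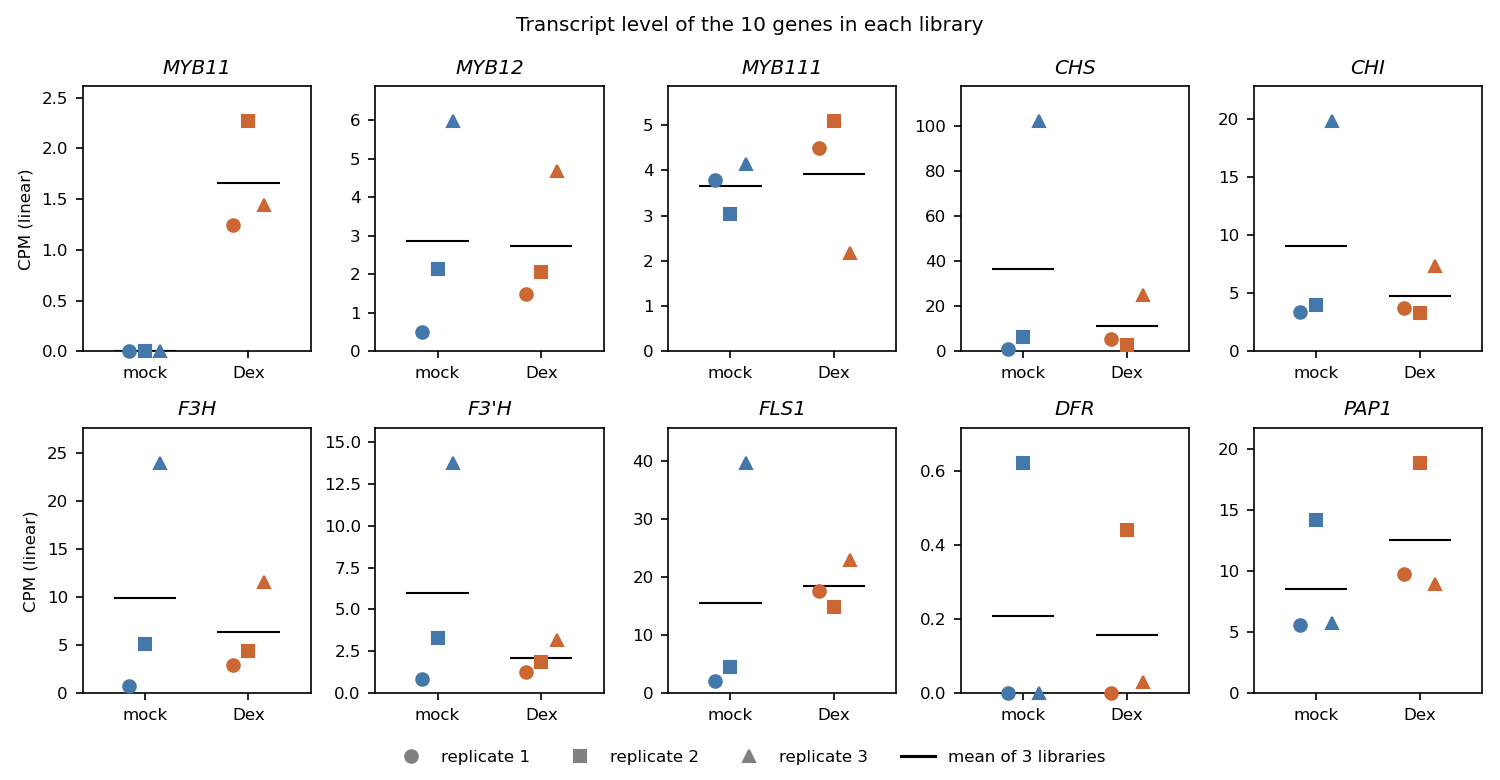
Level of each of the 10 genes in CPM (linear axes from 0, a scale of its own for each gene) in the 3 mock (blue) and 3 Dex (orange) libraries, with the replicate number as the symbol and the group mean as a line. *MYB11* had reads in the Dex libraries only, and mock replicate 3 was far above the other mock libraries for *CHS* (102 CPM against 1.17 and 6.46), *CHI*, *F3H*, *F3'H* and *FLS1*.

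*CHS*, which makes the first committed flavonoid intermediate, had 26, 166 and 2373 reads in mock replicates 1, 2 and 3 and 136, 83 and 789 reads in Dex replicates 1, 2 and 3. Replicate 3 was the highest library of each group, and the groups overlapped. In CPM the mock libraries spanned 1.17 to 102, an 87.1-fold range, and the Dex libraries 3.04 to 24.8, an 8.15-fold range. Over the 19217 genes with reads in every library, the median range was 1.31-fold in mock and 1.23-fold in Dex. A mock range at least as wide as that of *CHS* was found for 6 genes (*CHS* among them), and a Dex range at least as wide for 76. The log2 difference between Dex and mock was −1.70 (SE 1.27) with all libraries and 1.54 without mock replicate 3, which turns its direction.

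*CHI*, whose product closes the ring of the chalcone, had 75, 103 and 460 reads in mock and 89, 90 and 234 reads in Dex libraries. Its log2 difference was −0.91 (SE 0.64), and 0.38 without mock replicate 3. For *F3'H* the reads were 19, 85 and 319 in mock and 30, 51 and 101 in Dex. Replicate 3 was again the highest of each group for these genes, and the groups overlapped. The *F3'H* difference of −1.49 (SE 0.81) was 0.01 without mock replicate 3.

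*F3H*, the hydroxylase upstream of both flavonols and anthocyanins, had 16, 131 and 556 reads in mock and 72, 121 and 368 in Dex libraries. Replicate 3 was the highest of each group here too, with a log2 difference of −0.64 (SE 0.92) and of 1.11 without mock replicate 3. Only 12.3% of its reads were counted as unique, and in unique reads its mean was 1.26 CPM in mock and 0.728 CPM in Dex against 9.93 and 6.34 CPM in all reads. The long noncoding gene AT3G51238 covers 1588 bases of *F3H* on the opposite strand and was itself given 0 to 16 reads per library. Reads of the pair cannot be told apart without the strand, so the level of *F3H* is uncertain. *CHS* shares 2 bases with AT5G13940 on the opposite strand, which had 0 to 5 reads.

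*FLS1*, whose product makes the flavonol itself, had 49, 118 and 923 reads in mock and 424, 406 and 732 reads in Dex libraries. Mock replicates 1 and 2 lay below every Dex library and mock replicate 3 above every Dex library. In CPM the mock level was 2.21, 4.60 and 39.8 and the Dex level 17.7, 14.9 and 23.0, or 18.5 ± 4.14 (SD, n = 3). The Dex range of 1.55-fold contrasts with a mock range of 18.0-fold. With all libraries the log2 difference was 0.26 (SE 0.82). It was 2.43 without mock replicate 3 and 2.25 without replicate 3 of both groups (the latter chosen after the high libraries were seen), and lay between −0.28 and 0.39 when any other library was left out. With limma-voom it was 1.30.

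**Figure D2:**
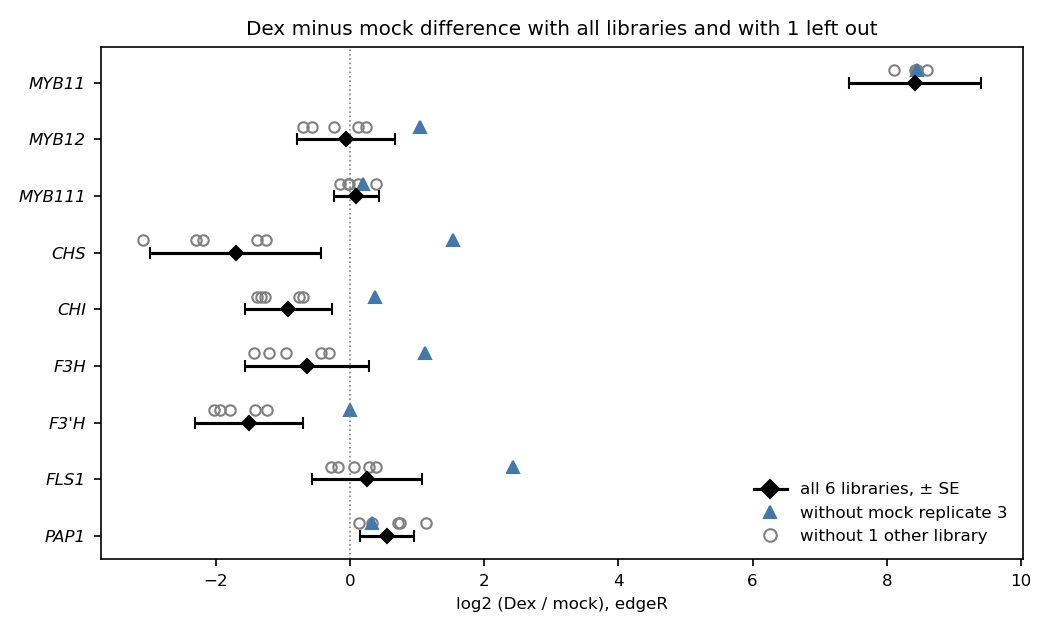
Dex minus mock difference on the log2 scale for the 9 genes tested, with all 6 libraries (diamonds, bars are the SE of the edgeR fit), without mock replicate 3 (triangles) and without each other library (circles). Without mock replicate 3, *CHS* moved from −1.70 to 1.54 and *FLS1* from 0.26 to 2.43, while *MYB11*, a fitted value without mock reads, stayed between 8.10 and 8.60.

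Replicate 3 was the highest library of each group for *CHS*, *CHI*, *F3H* and *F3'H*. From Dex replicate 1 to 2, however, *CHS* and *CHI* fell in CPM while *F3H* and *F3'H* rose. *FLS1* was also set against these early enzyme genes in each library. This ratio was chosen after the values were seen and is a description. *FLS1* RPKM over the geometric mean of *CHS*, *CHI*, *F3H* and *F3'H* was 1.70, 0.977 and 1.30 in mock replicates 1, 2 and 3 and 5.58, 4.64 and 2.41 in the Dex replicates. The groups did not overlap, with means of 1.33 ± 0.360 and 4.21 ± 1.63 (SD, n = 3). Levels of single genes did not overlap for 27.3% of all tested genes, and no such share was computed for ratios. The uncertain level of *F3H* also enters the geometric mean. Taken singly, the ratios to *CHI* (0.449 to 1.26 in mock, 1.99 to 3.08 in Dex) and to *F3'H* (1.79 to 3.55 and 9.11 to 17.2) did not overlap either. Those to *CHS* (0.387 to 1.88 and 0.920 to 4.88) and to *F3H* (0.909 to 3.09 and 2.01 to 5.90) did.

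*FLS1* also differed in where its reads lay. Intron reads numbered 0, 0 and 1 in mock replicates 1, 2 and 3, the single read among 923 in replicate 3 (0.108%, exact 95% interval 0.00274 to 0.602%). In the Dex libraries they numbered 14, 15 and 16, or 3.30% (1.82 to 5.48%), 3.69% (2.08 to 6.02%) and 2.19% (1.25 to 3.53%) of the *FLS1* reads. The counts of 0 allow up to 6.12% in mock replicate 1 and 2.54% in mock replicate 2, so only mock replicate 3 was deep enough to lie below the Dex shares. Intervals and limits cover counting error only. Summed over libraries the share was 0.0917% in mock, where 923 of 1090 reads came from replicate 3, and 2.88% in Dex. The medians over 14887 genes with more than 1 exon and at least 100 reads per group were 0.229% and 0.252%. Of these genes 0.329% had a difference at least as large with all Dex above all mock libraries. That cut is the difference of *FLS1* itself, so the share is a description and not a test. For *CHS*, *F3H* and *DFR* (the last with few reads) no intron read was counted in any library. The remaining genes other than *FLS1* had at most 9 in a library.

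*DFR*, at the entry to the anthocyanin branch, had few reads, with 0, 16 and 0 reads in mock and 0, 12 and 1 in Dex libraries, so that all 16 of its mock reads and 12 of its 13 Dex reads came from the libraries numbered 2. *PAP1* had 124, 363 and 134 reads in mock and 234, 514 and 285 reads in Dex libraries. Replicate 2 was again the highest of each group, and the groups overlapped, at 8.50 ± 4.88 and 12.5 ± 5.50 CPM (SD, n = 3). The log2 difference of *PAP1* was 0.55 (SE 0.41), and 1.14 without mock replicate 2.

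Ordered by mean RPKM, *CHS* stood first in mock (24.3 ± 37.7) before *FLS1* (10.3 ± 13.9), *CHI* (9.32 ± 9.99), *PAP1* (9.12 ± 5.30), *F3H* (6.53 ± 8.09), *F3'H* (3.20 ± 3.70), *MYB111* (2.72 ± 0.393), *MYB12* (1.86 ± 1.84), *DFR* (0.125 ± 0.217) and *MYB11*, which had none. Every neighbouring pair of this order overlapped between libraries. In Dex libraries the order was *PAP1* (13.6 ± 5.96), *FLS1* (12.4 ± 2.59), *CHS* (7.49 ± 7.84), *CHI* (5.01 ± 2.25), *F3H* (4.18 ± 2.94), *MYB111* (3.02 ± 1.20), *MYB12* (1.83 ± 1.17), *MYB11* (1.27 ± 0.485), *F3'H* (1.13 ± 0.487) and *DFR* (0.116 ± 0.181). Here *F3'H* and *DFR* were the only neighbours that did not overlap.

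Within the groups the members thus fell into patterns by replicate number. For 6 of the 9 members tested (*MYB12*, *CHS*, *CHI*, *F3H*, *F3'H* and *FLS1*) replicate 3 was the highest library in mock and in Dex, which was so for 13.4% of all tested genes. Replicate 2 was the highest in both groups for *PAP1* alone, against 13% of all tested genes, and for *DFR*, which was not tested. *MYB11* and *MYB111* followed neither pattern. The 6 genes act in the same pathway and are not independent counts of this order. The labels do not say whether replicates of the same number share a day or a batch. Over all tested genes, deviations from the group mean correlated at 0.209 between mock and Dex replicate 3. Between mock replicate 2 and Dex replicate 1 the value was 0.220. Whether the libraries numbered 3 have anything in common was not tested.

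Of the 54 tested genes of other pathway lists, 17 had their highest level in replicate 3 of both groups and 13 in replicate 2 of both groups. The genes named in this paragraph were chosen after their values were seen. Replicate 3 was the highest library of both groups for *4CL3* (26, 43 and 238 reads in mock, 13, 17 and 108 in Dex), the 4-coumarate:CoA ligase of the flavonoid branch, and for *CHIL* (52, 106 and 423 reads in mock, 44, 118 and 274 in Dex), a CHI-like protein that aids CHS. It was also highest in both groups for 7 of 10 light and UV-B regulators, among them *HY5*, with a span of only 12.4 to 13.7 CPM in mock. Of the phenylpropanoid entry genes *PAL1*, *PAL4*, *4CL1* and *4CL2* (4 of 8) were highest in replicate 2 of both groups, as were 3 of 6 tested anthocyanin and proanthocyanidin genes, or 6 of 10 when those with too few reads to be tested are counted. Of the latter, *LDOX*, the anthocyanidin synthase gene, had 0, 32 and 7 reads in mock and 6, 69 and 4 in Dex libraries. *UGT79B1*, which adds a sugar to anthocyanins, had 0, 26 and 0 reads in mock and 4, 85 and 3 in Dex libraries.

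**Figure D3:**
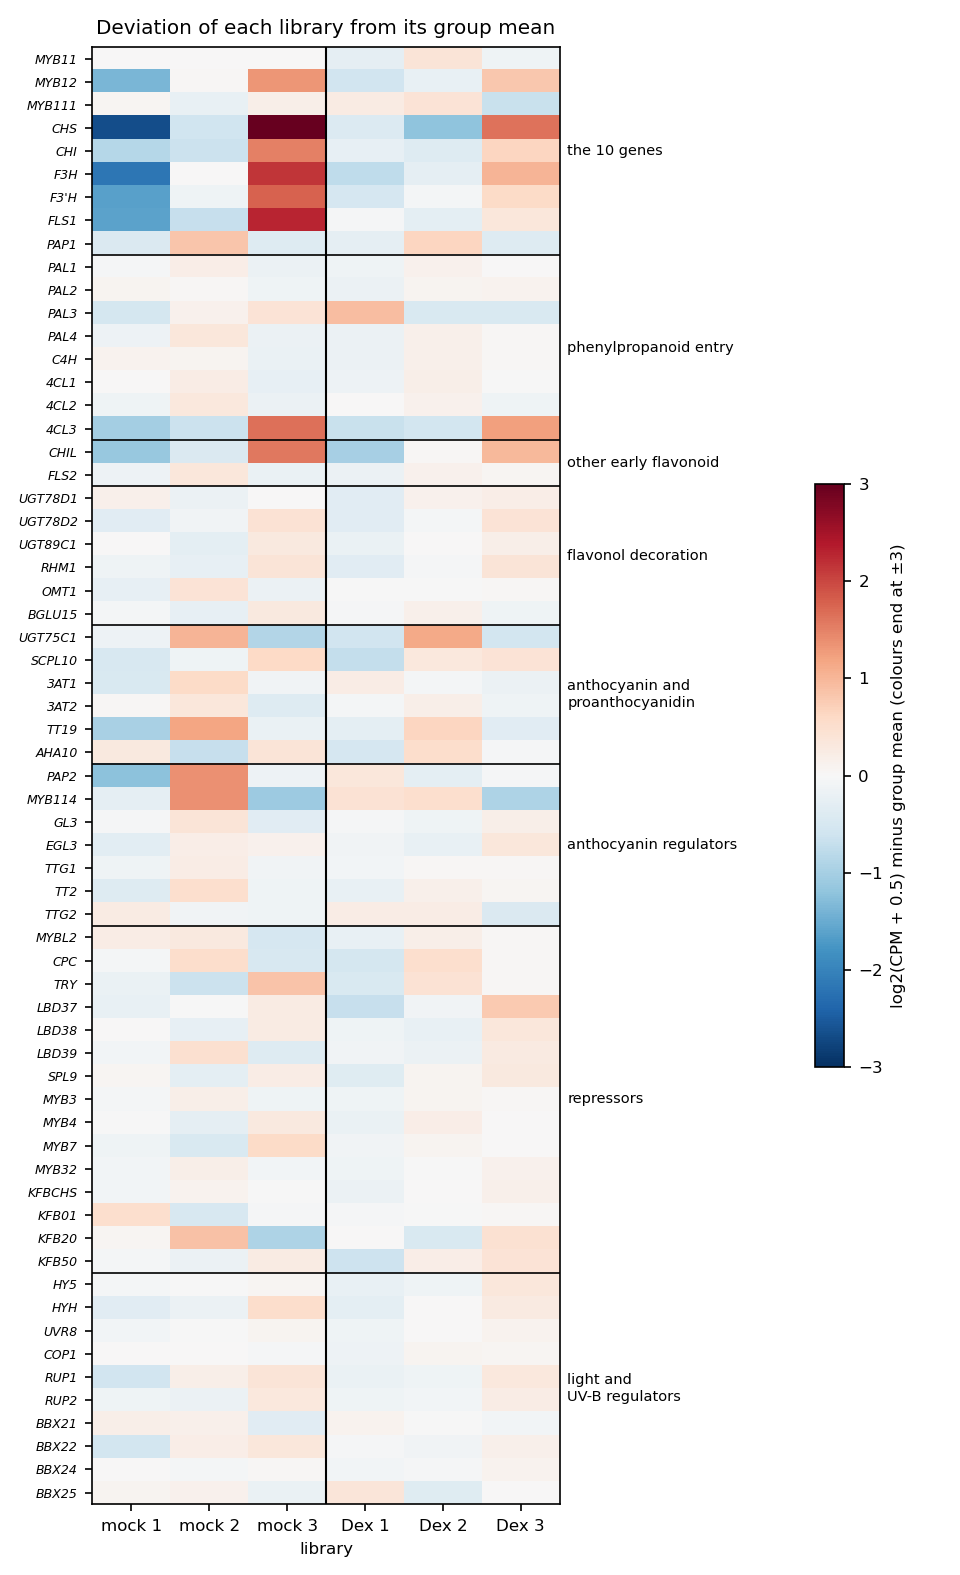
Deviation of each library from the mean of its group (log2(CPM + 0.5), red above and blue below, colours end at ±3) for the 9 members tested and the 54 tested genes of the flavonoid lists. Mock replicate 3 and Dex replicate 3 are red for *MYB12*, *CHS*, *CHI*, *F3H*, *F3'H*, *FLS1*, *4CL3* and *CHIL*, and the libraries numbered 2 for *PAP1*, *UGT75C1* and *TT19*.

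Markers of cell types were set beside these orders. Epidermis markers (5 of 6 with reads, *PDF1* at 0) summed to 781, 499 and 839 CPM in mock replicates 1, 2 and 3, beside *CHS* levels of 1.17, 6.46 and 102 CPM, and to 418 to 563 CPM in Dex libraries. Single markers differed in their mock range, which was 12.8-fold for *LTP1* (19.6, 2.26 and 28.8 CPM) and 5.18-fold for *CER1* (307, 75.1 and 389 CPM). For *ATML1*, *FDH* and *CER6* it was 1.08-, 1.13- and 1.09-fold, and mock replicate 1 was their highest mock library. The order of the sum was thus that of *CER1* and *LTP1* and not of the other markers. Green cortex markers (5 of 5 with reads) summed to 15145, 8323 and 14037 CPM in mock and 6652 to 9082 CPM in Dex libraries. Vascular markers (6 of 6 with reads) summed to 1786 to 1912 CPM in mock and 1657 to 1921 CPM in Dex libraries. Most of that sum was *IRX3* (1236 ± 134 CPM in mock, 1121 ± 186 CPM in Dex; SD, n = 3). Within the list *ATHB8* was called higher (124 ± 16.1 to 265 ± 10.6 CPM), and the other 5 were not called. Of the 9 tapetum markers, listed because MYB factors also act in anthers, *A9*, *SHT* and *CYP703A2* had no reads. The whole list summed to 1925, 1799 and 1548 CPM in mock replicates 1, 2 and 3 and to 1623, 2361 and 2602 CPM in the Dex replicates, nearly all of it from *MS2* (1750 ± 190.1 CPM in mock, 2187 ± 509 CPM in Dex; SD, n = 3). *GRP17*, a pollen coat protein gene, had 36, 85 and 104 reads in Dex and none in mock libraries, and the 7 markers other than *GRP17* and *MS2* summed to 5.04 to 8.10 CPM in mock and 5.98 to 6.54 CPM in Dex. The part of these cell types in the levels of the members was not tested.

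The G-box CACGTG, a site of light-related bZIP and other factors, and the AC elements (with the letters ACCTACC, with the letters ACCAACC or with the letters ACCTAAC), sites of MYB factors in phenylpropanoid genes, were searched in the same windows on both strands. The G-box was present for 4 of the 10 members and in 6.49% of all windows. An AC element was present for none of the 10 members and in 6.12% of all windows, which says only that these letters are not in these 250 bases. The windows with a G-box are shown because 3 of their genes, *MYB12*, *CHS* and *F3H*, shared the replicate 3 order, while *DFR* did not. *CHI*, *F3'H* and *FLS1* shared that order and had no match.
MYB12: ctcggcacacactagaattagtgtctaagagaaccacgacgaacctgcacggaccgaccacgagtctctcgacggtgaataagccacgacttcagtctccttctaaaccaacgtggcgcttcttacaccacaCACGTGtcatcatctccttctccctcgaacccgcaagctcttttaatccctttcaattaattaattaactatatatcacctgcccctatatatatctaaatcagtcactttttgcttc
CHS: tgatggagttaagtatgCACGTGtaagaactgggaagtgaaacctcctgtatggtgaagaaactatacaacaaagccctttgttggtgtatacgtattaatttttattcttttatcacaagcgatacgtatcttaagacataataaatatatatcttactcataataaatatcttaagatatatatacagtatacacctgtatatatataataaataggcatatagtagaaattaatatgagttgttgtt
F3H: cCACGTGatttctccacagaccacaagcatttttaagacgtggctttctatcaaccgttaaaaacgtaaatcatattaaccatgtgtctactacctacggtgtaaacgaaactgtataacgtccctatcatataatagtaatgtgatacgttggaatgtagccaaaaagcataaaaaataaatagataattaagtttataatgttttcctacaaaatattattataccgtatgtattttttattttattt
DFR: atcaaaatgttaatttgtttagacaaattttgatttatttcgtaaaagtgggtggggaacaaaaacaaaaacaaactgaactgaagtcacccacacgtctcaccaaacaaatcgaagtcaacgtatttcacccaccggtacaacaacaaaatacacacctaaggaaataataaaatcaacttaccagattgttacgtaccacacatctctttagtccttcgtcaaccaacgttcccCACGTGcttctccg
Capitals mark the G-box, which begins 118, 233, 249 and 14 bases before the start of *MYB12*, *CHS*, *F3H* and *DFR*. In TAIR10.1 the windows lie at chr2:19476076-19476325, chr5:4488226-4488475 and chr3:19024942-19025191 on the plus strand and, for *DFR*, at chr5:17166033-17166282 on the minus strand. The *F3H* window overlaps AT3G51238.

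Outside the 10 members, 78 other genes of the pathway were listed in 8 groups, and 54 of them were tested. The test called 2 higher and 1 lower with Dex (5.56%, against 6.69% of all genes), and their median log2 difference was −0.03 against −0.01 for all genes. Without mock replicate 2 the counts were 10 and 3 of 55 listed genes tested. Calls rose over all genes too in that fit, to 1918 higher and 1559 lower from 895 and 400 with all libraries. The calls given below without mock replicate 2 come from the same fit, so nothing particular to the pathway is read from them.

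*HYH* (AT3G17609), a bZIP factor that acts with its homolog HY5 in light responses and flavonoid gene activation, rose with Dex. It had 68, 91 and 140 reads in mock and 441, 625 and 875 reads in Dex libraries, so that the groups did not overlap. Its level was 4.22 ± 1.59 CPM in mock and 22.9 ± 4.58 CPM in Dex (SD, n = 3), 5.44-fold higher (log2 2.44, SE 0.26, edgeR adjusted p = 0.00123). It was called in 18 of 18 alternatives, with log2 values of 2.25 to 2.79 when a library was left out. Of the 10 light and UV-B regulators tested it was the only one called, and *HY5* itself had a log2 difference of −0.28 (adjusted p = 0.382, edgeR).

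Among 6 tested genes of flavonol decoration, 1 was called higher and 1 lower. *BGLU15* (AT2G44450), a β-glucosidase that removes glucose from flavonol glycosides, fell from 4.45 ± 0.971 to 1.38 ± 0.180 CPM (SD, n = 3; 93, 93 and 128 reads in mock, 32, 43 and 39 in Dex). Its log2 difference was −1.69 (SE 0.28, edgeR adjusted p = 0.0112), and the call was lost without Dex replicate 1 (adjusted p = 0.0506), without Dex replicate 3 (0.0613) and without replicate 3 of both groups (0.158). *UGT89C1* (AT1G06000), which adds rhamnose to flavonols, rose from 39.9 ± 8.12 to 63.4 ± 8.49 CPM (SD, n = 3; log2 0.67, SE 0.16, edgeR adjusted p = 0.0439). That call held in 10 of 18 alternatives and in 2 of 6 fits with a library left out. Only 46.1% of its reads were unique, and AT1G06002 covers 1580 bases of it on the opposite strand, so its level is uncertain.

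In the phenylpropanoid entry list none of 8 genes was called by edgeR, while 3 had an unadjusted p under 0.05, all higher, a threshold that 12.4% of all tested genes passed as higher and 10.2% as lower. DESeq2 and limma-voom called none and edgeR's exact test 1, and edgeR without mock replicate 2 called 3 higher. *PAL1*, the first enzyme of the pathway and the gene of the list with the highest CPM (per length, *C4H* was higher, at 475 ± 52.4 against 346 ± 51.7 RPKM in mock), was at 887 ± 119 CPM without and 1136 ± 98.4 CPM after Dex (SD, n = 3; log2 0.36, adjusted p = 0.182), and was past the threshold without mock replicate 2 (adjusted p = 0.0439). *4CL1* had a log2 difference of 0.30 (adjusted p = 0.296, edgeR). Neither *CHIL* (−0.73, adjusted p = 0.607) nor *FLS2* (−0.03, adjusted p = 0.936), the 2 tested genes of the other early flavonoid list, was called. Per length *FLS2* was at 56.0 ± 13.4 RPKM in mock and 55.8 ± 5.18 RPKM in Dex, above *FLS1*. *FLS5*, named after its values were seen, had no mock reads and 6, 7 and 6 Dex reads, at least 5.49-fold higher, and was not tested.

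None of the 6 anthocyanin and proanthocyanidin genes tested was called by edgeR, by DESeq2, limma-voom or the exact test, or at an unadjusted p under 0.05. The acyltransferase genes *3AT1* and *3AT2* had log2 differences of 0.45 (adjusted p = 0.334, edgeR) and 0.24 (adjusted p = 0.493, edgeR). Without mock replicate 2, *3AT1* was past the threshold at 0.82 (adjusted p = 0.0119). Of the 7 anthocyanin regulators tested none was called by these tools. At an unadjusted p under 0.05 there were 2, both higher, where 12.4% of all tested genes were higher. The bHLH factor *EGL3* had a log2 difference of 0.68 (adjusted p = 0.132, edgeR) and *TTG1*, its WD40 partner, one of −0.20 (adjusted p = 0.376, edgeR). Without mock replicate 2, 2 genes of this list were called.

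Of the 15 repressor genes tested none was called by edgeR, DESeq2, limma-voom or the exact test. At an unadjusted p under 0.05 there were 2 higher and 1 lower, against 12.4% and 10.2% of all tested genes. Without mock replicate 2, edgeR called 1 higher and 2 lower. *MYB4*, a repressor of phenylpropanoid genes, had a log2 difference of −0.27 (adjusted p = 0.349, edgeR), and *KFBCHS*, which marks CHS protein for breakdown, one of −0.26 (adjusted p = 0.212, edgeR). None of the 4 stamen MYB genes passed the filter. *MYB24* and *MYB57* were at 0.113 ± 0.0736 and 0.0767 ± 0.0736 CPM in Dex (SD, n = 3), and none of the reads of *MYB24* was unique.

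**Figure D4:**
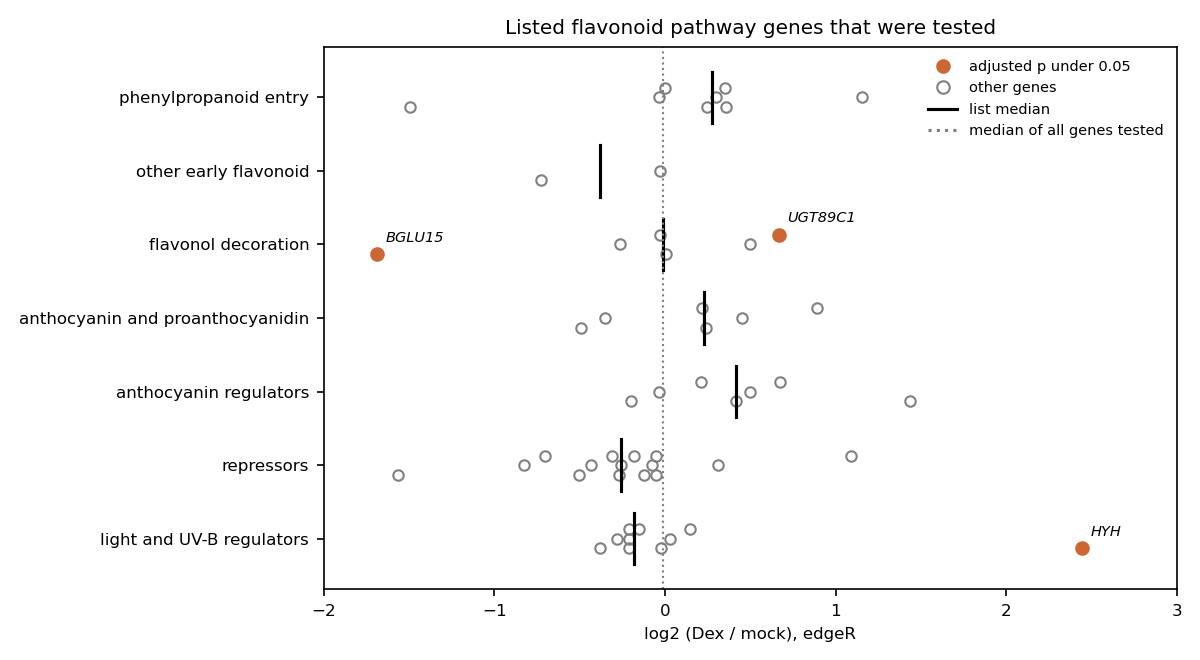
Dex minus mock difference on the log2 scale of the 54 tested genes in 7 of the flavonoid lists (the stamen list had none), with called genes filled, list medians as black lines and the median of all 19347 genes (−0.01) dotted. *HYH* (2.44) and *UGT89C1* (0.67) were called higher and *BGLU15* (−1.69) lower.

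Genes whose level followed that of *MYB11* or *CHS* most closely over the 6 libraries were found by Pearson's r of log2(CPM + 0.5). For *MYB11* these were *ACP3*, an acyl carrier protein gene (r = 0.999), AT4G16490 (0.998) and *GBF6*, a bZIP factor gene (0.996). The measure ignores size, and *ACP3* differed by only 0.12 on the log2 scale between Dex and mock. For *CHS* they were *MUB1* (0.997), *HOS15* (0.987) and AT5G63550 (0.987), with log2 differences between −0.02 and −0.01. These correlations describe 6 libraries of 2 groups and were picked as the highest of all tested genes.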

How the data were processed

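RNA of second internodes was made into strand-marked (dUTP) libraries and sequenced as single reads. Alignment to the TAIR10 genome was done by the authors in CLC Genomics Workbench, and their deposited tables, 1 per library, give read counts per gene (all, unique, exon, intron and exon-exon reads). The deposited RPKM values by the authors are total exon reads per kilobase of exon, scaled to the gene reads of the library. The deposited tables also hold other columns, exon length and exon number. Entries without a gene name (5 per library, 0.0803 to 0.0998% of reads) were left out.

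Groups and replicate numbers come from the sample labels. Total gene counts were tested with edgeR 4.0.16 (quasi-likelihood test, TMM factors 0.969 to 1.04, minimum count 10, minimum total 15) in R 4.3.3, with Benjamini-Hochberg adjustment over 19347 genes. The study used DESeq. SE is the log2 difference divided by the square root of F. The test was tried on simulated data. Levels are CPM or deposited RPKM, and 0 reads are bounded by 3 counts over the group. Alternatives used DESeq2 1.42.0 and limma 3.58.1, log2(RPKM + 0.1), other scalings, filters and read classes, a replicate block and libraries left out.

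Members, lists, markers and motifs were chosen with earlier results of these data known. Named were all members, in each list the called genes or else the 2 of highest mean CPM, and the 3 genes most like *MYB11* and *CHS*. Overlapping genes and the sequences are from RefSeq TAIR10.1, whose locus identifiers matched all 10 members. The deposited tables hold no coordinates. Protein sequences were not used here.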

Additional observations from a re-analysis of the deposited data

How the results depend on the processing

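The fitted log2 difference of *MYB11* ranged from 3.72 to 8.60 over 18 alternatives, since without mock reads its size rests on the prior count or pseudocount. Members called higher, from which nothing is read because of how they were chosen, numbered 1 with all libraries and 1 to 2 with a library left out, and 2 without replicate 3 of both groups, an alternative chosen after seeing the data. Over all genes, 895 were called higher and 400 lower, against 1399 and 948 with DESeq2, 851 lower with the exact test, 2408 and 1969 at an unadjusted p, 483 and 124 with limma on log2 RPKM, 210 and 56 without replicate 3 of both groups, and 931 lower without replicate 2 of both groups. With a library left out the counts were 337 to 1918 higher and 70 to 1559 lower. The lowest came without Dex replicate 2 and the highest without mock replicate 2; the cause was not tested. Of the listed flavonoid genes, 2 were called higher and 1 lower, with 1 to 10 higher and 0 to 3 lower when a library was left out. At an unadjusted p these were 10 and 2. In unique reads, and with limma on log2 RPKM, 1 was higher. Without replicate 3 of both groups 1 was higher and 0 lower, and without replicate 2 of both groups 5 were higher. *FLS2* (−0.03) changed sign to 0.016 with limma on log2 RPKM and to 0.10 without replicate 2 of both groups, and spanned −0.12 to 0.17 with a library left out. *CHIL* (−0.73) spanned −1.42 to 0.61, the highest without mock replicate 3.

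Correlations of deviations from the group means between libraries of the same number were −0.104, 0.000174 and 0.209, so the replicate numbers were not taken as pairs, and mock replicate 2 correlated best with Dex replicate 1 (0.220). With the replicate number as a block, 613 genes were called higher and 261 lower, and the calls among members and listed genes numbered the same as without it. Few reads limit *DFR*, *MYB11*, *FLS5* and the intron shares. Dixon's test for an outlying library was not run, since it was set for groups of 4 or more.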
